A study of Mus musculus with 12 samples.

Results

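Proteasome subunits, assembly chaperones, activators and inhibitors were taken as the genes whose symbol starts with Psma, Psmb, Psmc, Psmd, Psme, Psmf or Psmg followed by a digit. The table held 49 such symbols among 23479 genes, and 47 reached 10 normalized counts in 3 or more of the 12 libraries. Psma8, a testis form of an alpha subunit, and Psmb11, the thymus form of a catalytic subunit, did not and were not tested. One of the 47, Psmc3ip, shares only its symbol with the family, since it encodes a meiotic recombination factor named for binding Psmc3, so 46 genes of the proteasome system were measured.

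The libraries came from cultured cells of 1 B-cell lymphoma of a C57BL/6 mouse with Eµ-Myc and Eµ-rtTA transgenes, in which the Eµ immunoglobulin enhancer drives both MYC and the tetracycline-responsive activator in B cells. Medium for all cells contained interleukin-7. TFEB cells carried a puromycin-selected retrovirus with TFEB, a transcription factor of lysosomal and autophagy genes, mutated from serine to alanine at residue 211 and fused to ERT2, an altered hormone-binding part of the human estrogen receptor that 4-hydroxytamoxifen (4-OHT) switches on. Vector cells carried a puromycin-selected retrovirus without TFEB. The groups were TFEB cells given 4-OHT, TFEB cells given vehicle, vector cells given 4-OHT and vector cells given vehicle, with treatment for 4 days and 3 libraries each. The dose is 250 nM in the treatment protocol and 250 ng/mL in the design text. All libraries came from 1 lymphoma, and nothing says whether replicates were separate cultures, so the p-values reflect just the scatter among these libraries.

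Proteasomes degrade proteins that carry ubiquitin chains. The 20S core is a barrel of alpha and beta rings with proteolytic sites on 3 beta subunits, Psmb5, Psmb6 and Psmb7. Lymphoid cells and cells exposed to interferon replace these with Psmb8, Psmb9 and Psmb10, which gives the immunoproteasome, known for cutting peptides for MHC class I. The 19S cap has a base with ATPases that unfold substrates and a lid that removes ubiquitin, and other caps (Psme1 with Psme2, Psme3, Psme4) can take its place. In mammals the transcription factor NRF1 (Nfe2l1) is known to raise most subunit genes together when proteasomes are inhibited.

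Values are the authors' normalized counts, in which the reads of a library are divided by its size factor. Total reads per library ran from 11849029 to 22109283, and the number of genes with any read from 11390 to 19250, highest within their groups in TFEB 4-OHT library 2 and vector 4-OHT library 2. Among TFEB vehicle libraries, library 1 had the most, and these 3 libraries are left out where results without 3 libraries are given. Normalized counts of mouse Tfeb, which checks the labels, stood at 702, 581 and 711 in TFEB cells given 4-OHT, 1597, 1955 and 1476 in TFEB cells given vehicle, 231, 195 and 238 in vector cells given 4-OHT and 252, 255 and 223 in vector cells given vehicle. All 11 markers of the B lineage were found, and their summed level was 72243 to 74499 in TFEB cells given 4-OHT, 88710 to 90601 in TFEB cells given vehicle, 90467 to 101219 in vector cells given 4-OHT and 89136 to 94479 in vector cells given vehicle. The largest part of that sum was Cd24a, at 29647 to 38744 over all libraries. Single markers varied unequally, from 3522 to 14455 for Igll1 and 1820 to 5657 for Pax5, but from 6833 to 9223 for Cd79a. Sums of T and NK cell markers (7 of 8 found) were 12.6 to 73.6 in TFEB cells given 4-OHT, 28.8 to 40.3 in TFEB cells given vehicle, 16.1 to 56.9 in vector cells given 4-OHT and 10.5 to 21.2 in vector cells given vehicle. Those of myeloid markers (7 of 8 found) were 37.8 to 144.6 in TFEB cells given 4-OHT, 28.8 to 58.1 in TFEB cells given vehicle, 9.30 to 35.6 in vector cells given 4-OHT and 10.2 to 29.5 in vector cells given vehicle. Dendritic cell markers (4 of 4 found) summed to 6.46 to 80.0 in TFEB cells given 4-OHT, 16.0 to 98.1 in TFEB cells given vehicle, 24.7 to 65.3 in vector cells given 4-OHT and 13.9 to 37.0 in vector cells given vehicle. Fibroblast and endothelial markers (6 of 6 found) summed to 689 to 874 in TFEB cells given 4-OHT, 831 to 872 in TFEB cells given vehicle, 910 to 973 in vector cells given 4-OHT and 814 to 841 in vector cells given vehicle. Most of that sum was Pecam1, at 648 to 908 in every library, while no collagen marker exceeded 78.3. Erythroid markers (6 of 6 found) reached at most 25.8 in TFEB cells given 4-OHT, 2.57 in TFEB cells given vehicle, 13.1 in vector cells given 4-OHT and 5.16 in vector cells given vehicle, and the globins Hba-a1, Hbb-b1, Hbb-bs and Hbb-bt were at 0 in every library. In bulk RNA, fewer cells of a type and less RNA per cell cannot be told apart.

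In TFEB cells, 4-OHT was set against vehicle, a comparison that holds both the ligand and the activated fusion. Individual subunit genes moved in both directions and by small amounts. Psmd6 and Psmd8 of the 19S lid, Psmd1 and Psmd2 of its base, the alpha subunit Psma6 and the cap subunit Psme1 rose by 1.18- to 1.44-fold. The immunoproteasome subunits Psmb8 and Psmb9, the alpha subunits Psma7 and Psma2 and the cap Psme4 fell by 1.18- to 1.45-fold. Among all these genes, the difference from vector cells passed only for Psmd6, Psmd8 and Psma6.

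Of the 47 genes, 6 rose and 5 fell in limma with Benjamini-Hochberg adjustment over 13111 genes at 0.05. That is 12.8% and 10.6%, against 13.7% of all tested genes that rose and 13.9% that fell, and 23.4% against 27.5% in either direction, so the shares lie near the background. What differed more in value was the size: none of the 47 reached 1.5-fold, against 1880 of 8821 tested genes whose mean was 100 or more (21.3%). The median absolute log2 change was 0.15 in the 47 and 0.27 in the 8821 genes, and the group means averaged 148 to 14254 normalized counts in the 47. The 8821 genes were not matched to the 47 in level, and the part of level in these sizes was not tested. Of 36 members that did not pass, 32 had a 95% interval of the change within 1.5-fold in both directions, and the other 4, Psmb10, Psmd10, Psmg4 and Psmc3ip, had wider ones. The median signed change was 0.05 on the log2 scale in the 47 and 0.04 over all tested genes. The TFEB libraries did not overlap for 9 members that were higher in 4-OHT, against 19.6% of tested genes, and for 7 that were lower, against 18.4%.

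**Figure D1:**
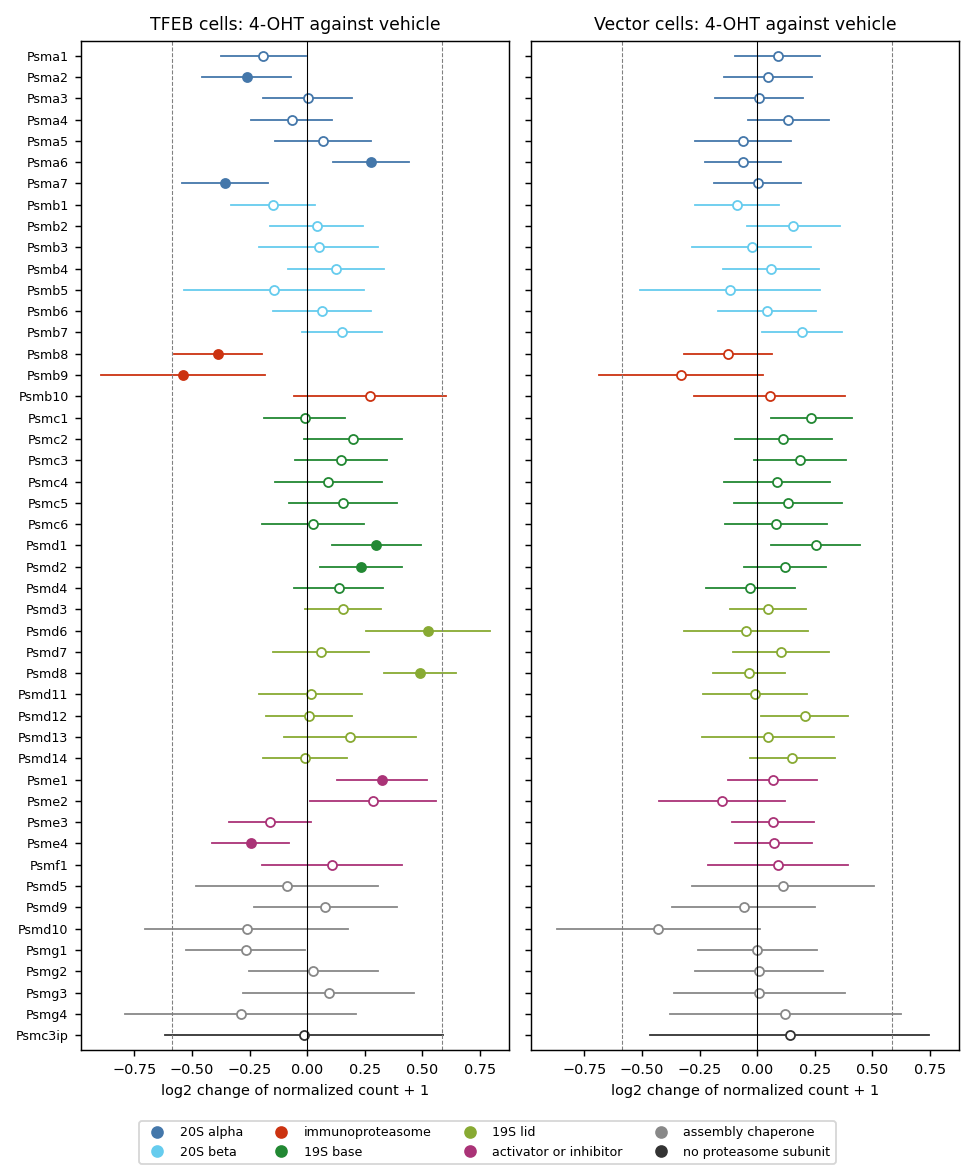
Change of each of the 47 genes in 4-OHT against vehicle, in TFEB cells (left) and vector cells (right), as log2 of normalized count + 1 with its 95% interval, where filled points passed an adjusted p of 0.05 in limma and dashed lines mark 1.5-fold. In TFEB cells 11 points are filled and lie between -0.54 and 0.52, and in vector cells 0 are filled.

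**Figure D2:**
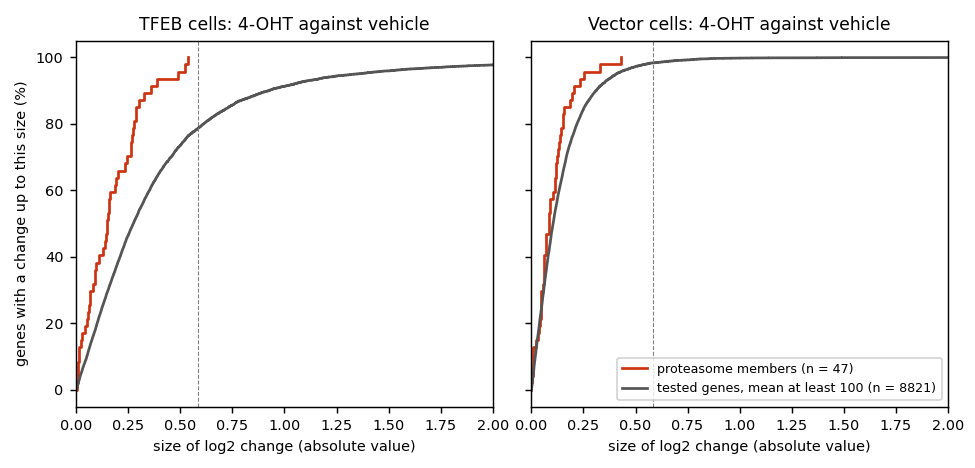
Share of genes (%) whose change is no larger than the value on the x axis (absolute log2 change, 4-OHT against vehicle), for the 47 members in red and for 8821 tested genes whose mean was 100 or more in grey, in TFEB cells (left) and vector cells (right). In TFEB cells every member lies left of the dashed line at 1.5-fold, while 21.3% of the grey genes lie beyond it, and in vector cells 1.66% do. The grey genes were not matched to the members in level.

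Psmd8 (chr7:29174188-29180701, minus strand, mm10) encodes a lid subunit that docks late in lid assembly. It stood at 5759, 5917 and 5937 normalized counts in TFEB cells given 4-OHT, against 4065, 4059 and 4424 in TFEB cells given vehicle. Vector cells had 4729, 4678 and 4554 in 4-OHT and 4579, 4988 and 4760 in vehicle. The 3 libraries of TFEB cells given 4-OHT were the highest of all 12, and TFEB cells given vehicle were the lowest group. Psmd8 rose 1.40-fold in TFEB cells (log2 0.49 ± 0.08 SE, adjusted p = 6.27e-06), and the log2 change in vector cells was -0.04 ± 0.08 (adjusted p = 0.972). The difference between these changes passed as well (log2 0.53 ± 0.11 SE, adjusted p = 0.000549), and both calls held under all alternatives tried.

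Psmd6 (chr14:14112174-14120984, minus strand) encodes another structural subunit of the lid. Its values were 812, 836 and 921 in TFEB cells given 4-OHT, against 573, 599 and 612 in TFEB cells given vehicle, and 590, 655 and 854 in vector cells given 4-OHT, against 698, 681 and 766 in vector cells given vehicle. TFEB cells given 4-OHT did not overlap TFEB cells given vehicle, but vector 4-OHT library 3 lay among them. Psmd6 rose 1.44-fold in TFEB cells (log2 0.52 ± 0.13 SE, adjusted p = 0.00261), a call that held under all 21 alternatives. The difference from vector cells (log2 0.57 ± 0.19 SE, adjusted p = 0.0328) was lost under 10 of 20 alternatives, among them edgeR (0.0527). Single libraries also ended it: TFEB 4-OHT library 2 (0.0525) or 3 (0.098), TFEB vehicle library 1 (0.0639), vector 4-OHT library 1 (0.12) or 2 (0.0752) and vector vehicle library 1 (0.0521) or 3 (0.0868), as did leaving out 3 libraries (0.176).

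The other 6 lid genes did not pass in TFEB cells and had log2 changes from -0.01 (Psmd14, which encodes the deubiquitinase of the lid) to 0.18 (Psmd13). As the lid members with the clearest rise, Psmd8 and Psmd6 are shown here with their promoters, 250 bases before to 50 after the start in RefSeq on GRCm38.p6 (Psmd8 at chr7:29180624-29180923 and Psmd6 at chr14:14120896-14121195, both on the minus strand, written 5′ to 3′). They are all in lower case because none of the motifs searched below occurred in either.
Psmd8: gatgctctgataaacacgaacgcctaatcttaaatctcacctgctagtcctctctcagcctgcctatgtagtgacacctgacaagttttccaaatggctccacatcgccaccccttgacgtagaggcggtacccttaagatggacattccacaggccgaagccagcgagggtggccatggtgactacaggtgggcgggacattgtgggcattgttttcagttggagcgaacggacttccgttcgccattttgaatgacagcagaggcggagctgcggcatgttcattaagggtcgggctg
Psmd6: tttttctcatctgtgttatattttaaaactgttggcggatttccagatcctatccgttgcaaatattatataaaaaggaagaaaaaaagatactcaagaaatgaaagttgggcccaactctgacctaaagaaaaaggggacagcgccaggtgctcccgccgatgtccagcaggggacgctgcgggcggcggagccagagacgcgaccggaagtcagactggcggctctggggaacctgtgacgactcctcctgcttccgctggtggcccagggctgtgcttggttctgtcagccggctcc

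In the base of the 19S cap, 2 of 9 genes rose in TFEB cells and none fell, against 13.7% and 13.9% of all tested genes. The list's median log2 change was 0.15. The changes of 8 of 9 base genes were above 0 in TFEB cells and also 8 of 9 in vector cells, where the median was 0.12 and none passed. Over all 13111 tested genes, 6920 were above 0 in TFEB cells and 7229 in vector cells. Psmd1 (chr1:86064387-86139151), a scaffold subunit of the base, stood at 4203, 4611 and 4487 in TFEB cells given 4-OHT, against 3411, 4080 and 3352 in TFEB cells given vehicle, and at 4290, 3554 and 4671 in vector cells given 4-OHT, against 3621, 3254 and 3567 in vector cells given vehicle. The TFEB groups did not overlap, whereas vector 4-OHT library 2 lay among the vehicle libraries. It rose 1.23-fold in TFEB cells (log2 0.30 ± 0.09 SE, adjusted p = 0.0165), with 0.25 ± 0.09 in vector cells (adjusted p = 0.619), and the difference did not pass (log2 0.05 ± 0.13 SE, adjusted p = 0.899). The call was lost without TFEB 4-OHT library 2 (adjusted p = 0.0726) or 3 (0.0591), without TFEB vehicle library 1 (0.074) or 3 (0.0802), and without 3 libraries (0.158). Of its exon bases, 9.7% are shared with the predicted gene Gm21972 on the same strand, so reads there cannot be divided with certainty.

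Psmd2 (chr16:20651652-20663414), the other scaffold, which binds ubiquitin receptors, stood at 3969, 3734 and 4174 in TFEB cells given 4-OHT and 3381, 3074 and 3660 in TFEB cells given vehicle. Those groups were apart by a narrow margin. It rose 1.18-fold (log2 0.23 ± 0.09 SE, adjusted p = 0.0438), and 9 of 21 alternatives lost the call, among them edgeR (0.0875) and the fits without TFEB 4-OHT library 1 (0.104) or 3 (0.186), without TFEB vehicle library 1 (0.0787) or 2 (0.202) and without 3 libraries (0.0739). In vector cells Psmd2 stood at 3965, 3452 and 3970 in 4-OHT and 3279, 3700 and 3494 in vehicle, which overlap. The difference between lines did not pass for Psmd2 (log2 0.11 ± 0.12 SE, adjusted p = 0.657). The 6 ATPases Psmc1 to Psmc6 and the ubiquitin receptor Psmd4 did not pass, with log2 changes from -0.01 (Psmc1) to 0.20 (Psmc2).

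Of 7 alpha subunits, which form the outer rings and gate of the core, Psma6 rose and Psma7 and Psma2 fell in TFEB cells. Psma6 (chr12:55384222-55418454) stood at 3280, 3179 and 3225 in TFEB cells given 4-OHT, 2540, 2682 and 2779 in TFEB cells given vehicle, 2860, 2547 and 2657 in vector cells given 4-OHT and 2748, 2795 and 2859 in vector cells given vehicle. The TFEB 4-OHT libraries were above all other 9. It rose 1.21-fold in TFEB cells (log2 0.28 ± 0.08 SE, adjusted p = 0.00963), a call lost only without 3 libraries (0.0746) among 21 alternatives. Its difference from vector cells (log2 0.34 ± 0.11 SE, adjusted p = 0.0419) was lost under 13 of 20. Besides edgeR (0.0713), leaving out TFEB 4-OHT library 1 (0.0893), 2 (0.0676) or 3 (0.0822), TFEB vehicle library 1 (0.0953), vector 4-OHT library 2 (0.103) or 3 (0.0617) or vector vehicle library 1 (0.0613), 2 (0.0744) or 3 (0.0833) ended it, as did leaving out 3 libraries (0.214).

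Psma7 (chr2:180036374-180042433), another alpha ring subunit, stood at 2268, 2011 and 1983 in TFEB cells given 4-OHT, 2469, 2722 and 2832 in TFEB cells given vehicle, 2739, 2707 and 2632 in vector cells given 4-OHT and 2766, 2951 and 2383 in vector cells given vehicle. All 3 values in TFEB cells given 4-OHT were below the other 9. It fell 1.28-fold in TFEB cells (log2 -0.36 ± 0.09 SE, adjusted p = 0.00307), a call held under all 21 alternatives, and the difference from vector cells did not pass (log2 -0.36 ± 0.13 SE, adjusted p = 0.0571). Psma2 (chr13:14613240-14674236) stood at 4014, 4233 and 4167 in TFEB cells given 4-OHT and 4335, 5241 and 5375 in TFEB cells given vehicle, with vector cells at 4682 to 5495 in 4-OHT and 4238 to 5421 in vehicle. TFEB vehicle library 1 lay close to the 4-OHT libraries. Psma2 fell 1.20-fold (log2 -0.26 ± 0.09 SE, adjusted p = 0.0363), lost with edgeR (0.0616), with no filter on low values (0.0612), without TFEB 4-OHT library 1 (0.12), 2 (0.0631) or 3 (0.0832) and without TFEB vehicle library 2 (0.124) or 3 (0.158).

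**Figure D3:**
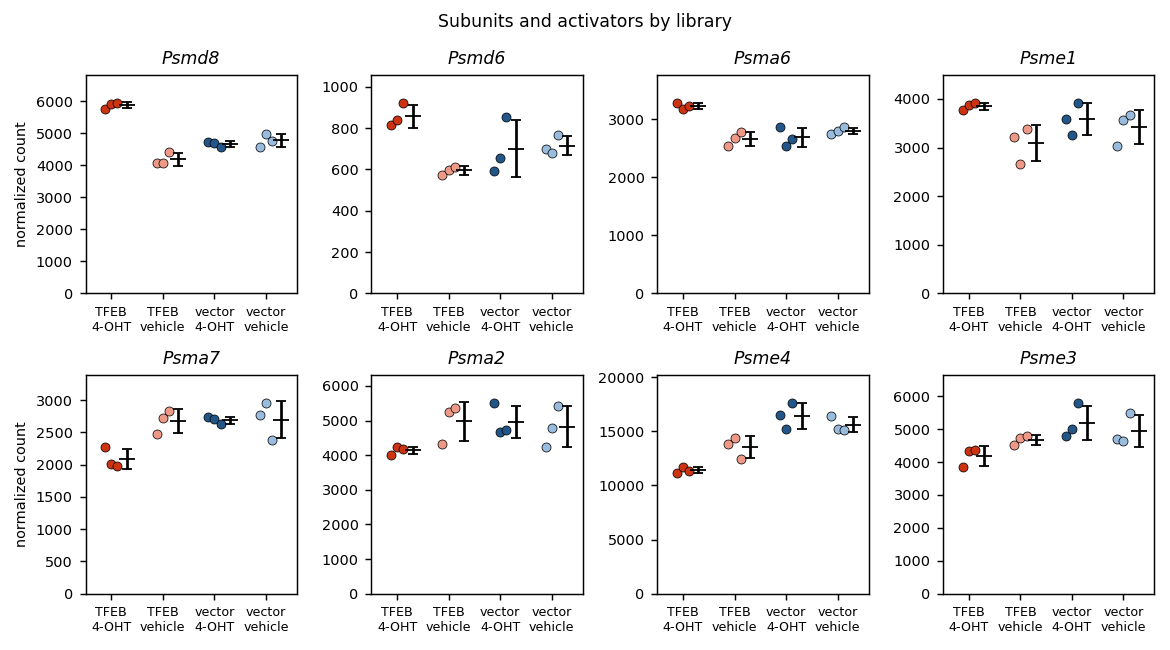
Normalized counts (y axes from 0) of lid subunits, alpha subunits and alternative caps in the 4 groups, where each point is 1 library and the bar beside it is the mean with its SD (n = 3). Psmd8 and Psma6 are higher and Psma7 and Psme4 lower in all 3 TFEB 4-OHT libraries than in all other 9.

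Of the 3 immunoproteasome subunits, 2 fell and 1 did not pass, and none of the 7 other beta subunits passed (log2 changes from -0.15 to 0.15). Over all tested genes 13.9% fell and 13.7% rose. In sets of 3 and 7 genes such counts cannot set the classes apart. Psmb8 (chr17:34197721-34201454), the inducible chymotrypsin-like subunit, stood at 2614, 2185 and 2380 in TFEB cells given 4-OHT and 3029, 3168 and 3166 in TFEB cells given vehicle. In vector cells it stood at 2988, 2799 and 2535 in 4-OHT and 2696, 3370 and 3042 in vehicle. The TFEB groups were well apart, whereas the vector groups overlapped and vector 4-OHT library 3 lay within the range of TFEB cells given 4-OHT. Psmb8 fell 1.31-fold in TFEB cells (log2 -0.39 ± 0.09 SE, adjusted p = 0.0017), and the call held under all 21 alternatives. The log2 change in vector cells was -0.13 ± 0.09 (adjusted p = 0.902), and the difference did not pass (log2 -0.26 ± 0.13 SE, adjusted p = 0.215).

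Psmb9 (chr17:34181987-34187764), the inducible partner of Psmb6, stood at 334, 256 and 413 in TFEB cells given 4-OHT, 448, 445 and 543 in TFEB cells given vehicle, 388, 466 and 346 in vector cells given 4-OHT and 454, 527 and 520 in vector cells given vehicle. The TFEB groups did not overlap, and the vector groups overlapped at vector 4-OHT library 2. It fell 1.45-fold in TFEB cells (log2 -0.54 ± 0.17 SE, adjusted p = 0.0195), with -0.33 ± 0.17 in vector cells (adjusted p = 0.81) and a difference of -0.21 ± 0.25 (adjusted p = 0.696) that did not pass. The call was lost without TFEB 4-OHT library 2 (0.171), without TFEB vehicle library 3 (0.0904) and without 3 libraries (0.161). Its exons share 15.7% of their bases with Tap1 on the opposite strand, whose log2 change was -0.22 ± 0.10 (adjusted p = 0.108). Since no source says that strand was used in counting, reads of the pair cannot be told apart there. Psmb8 likewise shares 11.4% of its exon bases with an antisense transcript, Gm20496. The summed B lineage markers given above were also lower in TFEB cells given 4-OHT, and their part in the levels of Psmb8 and Psmb9 was not tested.

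Psmb10 (chr8:105935735-105938444), the inducible partner of Psmb7, stood at 528, 470 and 473 in TFEB cells given 4-OHT, 386, 488 and 354 in TFEB cells given vehicle, 459, 406 and 547 in vector cells given 4-OHT and 438, 508 and 410 in vector cells given vehicle. The groups overlapped in both lines. Its log2 change in TFEB cells was 0.27 ± 0.16 (95% interval -0.06 to 0.60, adjusted p = 0.239), with a sign opposite to that of Psmb8 and Psmb9, and a rise of over 1.5-fold lies within the interval.

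None of the constitutive counterparts passed. Psmb5, the chymotrypsin-like subunit, stood at 307, 248 and 372 in TFEB cells given 4-OHT and 285, 395 and 337 in TFEB cells given vehicle (log2 -0.14 ± 0.19 SE, adjusted p = 0.682). Psmb6, the caspase-like subunit, stood at 1464, 1376 and 1496 in TFEB cells given 4-OHT and 1399, 1198 and 1574 in TFEB cells given vehicle (log2 0.06 ± 0.10 SE, adjusted p = 0.751). Psmb7, the trypsin-like subunit, stood at 3304, 3366 and 3413 in TFEB cells given 4-OHT and 2799, 3271 and 3016 in TFEB cells given vehicle (log2 0.15 ± 0.08 SE, adjusted p = 0.202). Only for Psmb7 did the TFEB groups not overlap, as its vector groups also did not, with 3402, 3021 and 3302 in 4-OHT and 2629, 2973 and 2906 in vehicle (adjusted p = 0.721). Of the exon bases of Psmb7, 34.9% overlap Nek6 on the opposite strand.

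Ratios of normalized counts within a library put each inducible subunit beside its counterpart. They are not corrected for length, so only their differences between groups can be read, and no test was run on them. Psmb9 to Psmb6 was 0.230 ± 0.045 in TFEB cells given 4-OHT, 0.346 ± 0.025 in TFEB cells given vehicle, 0.279 ± 0.065 in vector cells given 4-OHT and 0.355 ± 0.016 in vector cells given vehicle (SD, n = 3 each). Psmb8 to Psmb5 was 7.92 ± 1.32 in TFEB cells given 4-OHT, 9.34 ± 1.30 in TFEB cells given vehicle, 9.24 ± 0.88 in vector cells given 4-OHT and 9.28 ± 0.73 in vector cells given vehicle. Psmb10 to Psmb7 was 0.146 ± 0.012 in TFEB cells given 4-OHT, 0.135 ± 0.016 in TFEB cells given vehicle, 0.145 ± 0.018 in vector cells given 4-OHT and 0.160 ± 0.016 in vector cells given vehicle. For Psmb9 to Psmb6 the mean in 4-OHT was below that in vehicle in both lines, and for the other ratios the means of each line differed by little more than 1 SD or less.

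**Figure D4:**
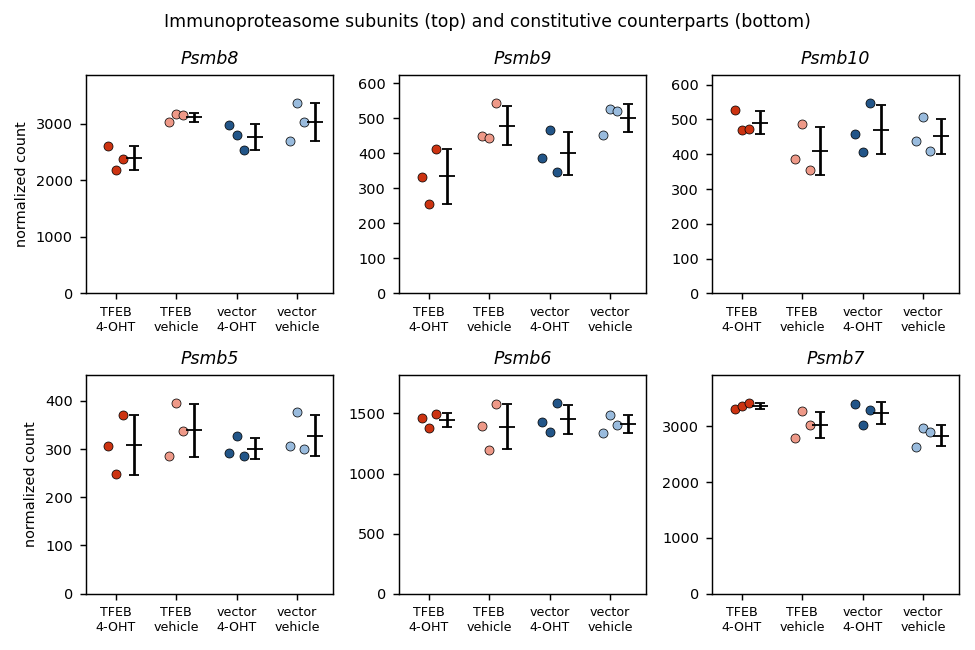
Normalized counts (y axes from 0) of the immunoproteasome subunits Psmb8, Psmb9 and Psmb10 (top) above their constitutive counterparts Psmb5, Psmb6 and Psmb7 (bottom) in the 4 groups, where each point is 1 library and the bar beside it the mean with its SD (n = 3). Psmb8 and Psmb9 in TFEB cells given 4-OHT lie below TFEB cells given vehicle without overlap, while the groups of Psmb10, Psmb5 and Psmb6 overlap.

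The alternative caps moved in different directions. Psme1 (chr14:55578123-55581529) and Psme2 (chr14:55587441-55591113) encode the 2 subunits of the interferon-inducible cap PA28. Psme1 stood at 3771, 3871 and 3914 in TFEB cells given 4-OHT, 3216, 2669 and 3390 in TFEB cells given vehicle, 3583, 3252 and 3909 in vector cells given 4-OHT and 3023, 3570 and 3664 in vector cells given vehicle. TFEB cells given 4-OHT were above TFEB cells given vehicle but within reach of vector 4-OHT library 3. It rose 1.25-fold (log2 0.32 ± 0.09 SE, adjusted p = 0.00927), lost without TFEB vehicle library 2 (0.0918) and without 3 libraries (0.0511), and the difference from vector cells did not pass (adjusted p = 0.232).

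Psme2 stood at 598, 661 and 605 in TFEB cells given 4-OHT, 594, 489 and 453 in TFEB cells given vehicle, 599, 626 and 584 in vector cells given 4-OHT and 618, 674 and 725 in vector cells given vehicle. TFEB cells given vehicle were the lowest group, and the other 3 groups lay close together. Its log2 change was 0.29 ± 0.13 (adjusted p = 0.118) and did not pass, except without TFEB vehicle library 1 (0.0405).

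Psme4 (chr11:30771726-30880361), the large cap PA200 known from DNA repair and spermatogenesis, had the highest counts of all members. It stood at 11178, 11722 and 11376 in TFEB cells given 4-OHT, 13825, 14412 and 12422 in TFEB cells given vehicle, 16479, 15211 and 17579 in vector cells given 4-OHT and 16450, 15250 and 15146 in vector cells given vehicle. TFEB cells given 4-OHT were lowest, TFEB cells given vehicle next, and both vector groups were higher without overlap. Psme4 fell 1.18-fold with 4-OHT in TFEB cells (log2 -0.24 ± 0.08 SE, adjusted p = 0.0242). This call was lost with edgeR (0.0525), with no filter on low values (0.062), without TFEB 4-OHT library 1 (0.0912) or 3 (0.0792), without TFEB vehicle library 1 (0.0701) or 2 (0.0978) and without 3 libraries (0.115).

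Psme3 (chr11:101316213-101323537), a nuclear cap, stood at 3838, 4338 and 4373 in TFEB cells given 4-OHT, 4505, 4728 and 4786 in TFEB cells given vehicle, 4781, 4992 and 5781 in vector cells given 4-OHT and 4689, 4641 and 5500 in vector cells given vehicle. Its TFEB groups did not overlap, but the change did not pass (log2 -0.16 ± 0.09 SE, adjusted p = 0.19). Psmf1, known as an inhibitor of the core in vitro, stood at 507, 505 and 406 in TFEB cells given 4-OHT and 448, 410 and 452 in TFEB cells given vehicle, which overlap (log2 0.11 ± 0.15 SE, adjusted p = 0.69). None of the 7 assembly chaperones passed. Psmg1 and Psmg4, chaperones of the alpha and beta rings, had log2 changes of -0.27 (adjusted p = 0.125) and -0.29 (adjusted p = 0.453), and Psmd10, a chaperone of the base, had -0.26 (adjusted p = 0.434).

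In vector cells, 4-OHT was compared with vehicle to give the background of the ligand without the fusion. None of the 47 genes passed in either direction, against 0% of tested genes higher and 0.0153% lower. At an unadjusted p under 0.05, 4 were higher (Psmb7, Psmc1, Psmd1 and Psmd12) and 0 lower in limma, against 2.79% and 3.48% of tested genes. After adjustment edgeR and DESeq2 called 0 members in each direction, and over all tested genes edgeR called 0 and DESeq2 0.0992% higher and 0.259% lower. Psmc1 had the smallest unadjusted p (log2 0.24 ± 0.09 SE, adjusted p = 0.606), with 3105, 2947 and 2952 in 4-OHT against 2597, 2362 and 2700 in vehicle, which did not overlap. Of all 47 genes, 43 had 95% intervals within 1.5-fold.

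The difference between the changes in TFEB and vector cells passed for Psmd8, Psmd6 and Psma6, all higher, which is 6.38% of the 47 against 7.75% of tested genes. None was lower, against 8.01%. DESeq2 called 2 lower, against 10.0% of tested genes, and edgeR 0, against 6.38%. At an unadjusted p under 0.05, 4 were lower in limma, against 13.0%. These differences use the same libraries as the comparisons within each line and are no separate support for them.

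TFEB and vector cells were also compared within each treatment. In vehicle, none of the 47 passed, against 2.89% of tested genes higher and 2.49% lower in TFEB cells. At an unadjusted p under 0.05, 0 were higher and 6 lower, namely Psma5, Psmc5, Psmd8, Psme2, Psme4 and Psmg3, against 9.67% of tested genes higher and 8.02% lower. DESeq2 called 2 lower, against 3.90% of tested genes, and edgeR 0, against 2.10%. All 5 alternative caps and inhibitors had log2 differences below 0, from -0.40 for Psme2 (± 0.13 SE, adjusted p = 0.0831) to -0.08 for Psme3. Of the 13111 tested genes, 5703 were below 0.

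In 4-OHT, 2 members were higher in TFEB than in vector cells, against 13.6% of tested genes, and 4 were lower, against 13.5%. Psmd8 (log2 0.34 ± 0.08 SE, adjusted p = 0.00093) and Psma6 (0.27 ± 0.08, adjusted p = 0.0131) were the higher genes. The lower genes were Psme4 (-0.52 ± 0.08, adjusted p = 7.12e-06), Psma7 (-0.37 ± 0.09, adjusted p = 0.00224), Psme3 (-0.31 ± 0.09, adjusted p = 0.00786) and Psma2 (-0.26 ± 0.09, adjusted p = 0.0389). Calls for Psme4, Psma7 and Psmd8 held under all 21 alternatives. Psma6 lost its call without vector 4-OHT library 2 (0.0637) and without 3 libraries (0.0953), and Psme3 without TFEB 4-OHT library 1 (0.0732) or vector 4-OHT library 3 (0.0716). Psma2 lost it under 7 of 21, with single libraries TFEB 4-OHT 1 (0.127), 2 (0.0666) and 3 (0.088) and vector 4-OHT 1 (0.236), without 3 libraries (0.0649), with edgeR (0.0762) and with no filter (0.0664). Psmg4 was the member past 1.5-fold here, at 169, 159 and 122 in TFEB cells and 253, 223 and 205 in vector cells without overlap, but did not pass (log2 -0.60 ± 0.24 SE, adjusted p = 0.0666).

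Levels can be compared only roughly between genes per kilobase of exon, here as the mean of the 4 groups over the union of GENCODE exons. That union counts every annotated exon, whichever transcripts the cells make, so a long union lowers the value. Psme1 had 3135 normalized counts per kb and Psme4 2196, whereas Psme2, the partner of Psme1, had 617 and Psmf1 122. Among catalytic subunits, Psmb7 had 2687, Psmb6 1785 and Psmb5 355, and of the inducible ones Psmb8 had 1739, Psmb10 348 and Psmb9 317. Genes of the base ranged from 659 (Psmc4) to 1764 (Psmc1). Alpha subunits ranged from 481 (Psma3, with a union of 2846 bases) to 2849 (Psma4, with 1165 bases). Assembly chaperones ranged from 134 (Psmd5) to 874 (Psmg1). All 49 symbols, with Psma8, Psmb11 and Psmc3ip among them, together took 0.592 to 0.622% of reads in TFEB cells given 4-OHT and 0.579 to 0.597% in TFEB cells given vehicle. In vector cells they took 0.615 to 0.669% in 4-OHT and 0.603 to 0.617% in vehicle.

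**Figure D5:**
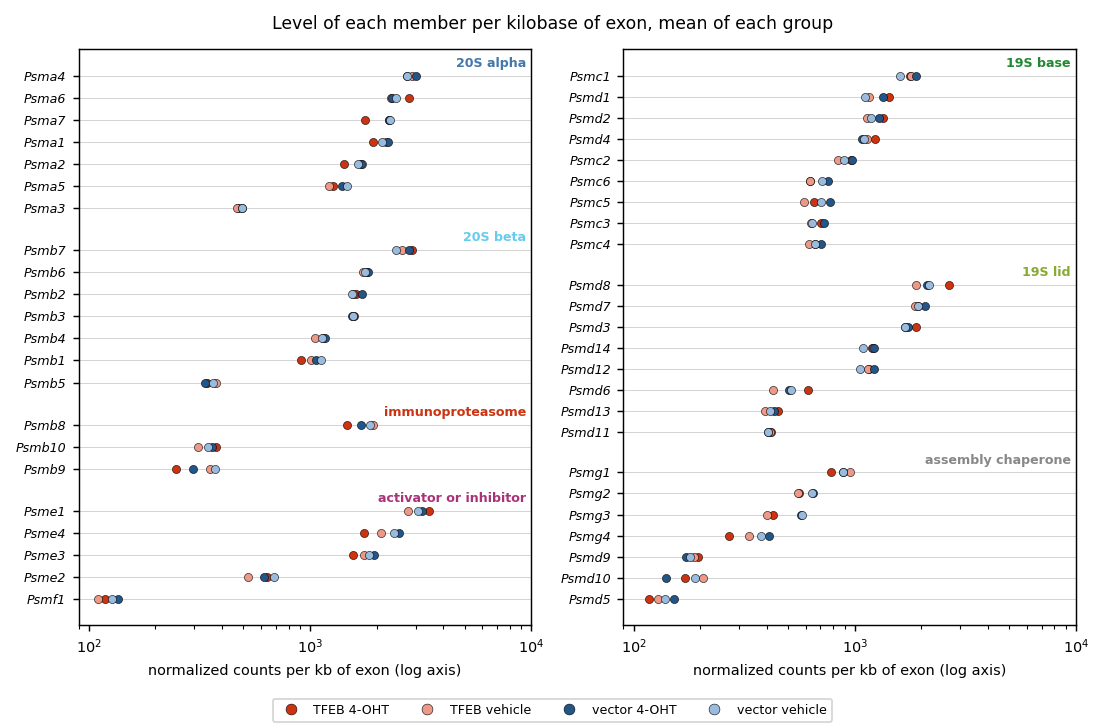
Mean level of each of 46 genes in each group as normalized counts per kb of exon (x axis, log scale), ordered by level within each class. Averaged over the groups, levels span 122 for Psmf1 to 3135 for Psme1, with Psmb8 (1739) well above Psmb10 (348) and Psmb9 (317).

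Of the genes that were not tested, Psma8 stood at 1.08, 28.4 and 6.79 in TFEB cells given 4-OHT, 0 in all 3 TFEB vehicle libraries, 0, 22.5 and 0 in vector cells given 4-OHT and 2.21, 0 and 0 in vector cells given vehicle. Its highest values were in the libraries of these groups with the most detected genes. Psmb11 reached 10.3 in TFEB 4-OHT library 2 and 4.28 in TFEB vehicle library 1 and was at 0 in the other 10. A 0 allows up to 3 reads, worth between 2.21 and 4.15 normalized counts.

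Promoters of 40 of the 47 genes were found in the RefSeq table (GRCm38.p6) and searched on both strands for motifs known from this field. The E-box CACGTG, which TFEB and MYC bind, occurred in 4 (10.0%), against 11.5% of 9587 tested genes and 7.15% of all 32851 promoters of the same length. Its longer form at lysosomal genes, the CLEAR element, here the E-box with GT before it and AC after it, occurred in 0 of 40, against 0.834% of tested genes and 0.326% of all promoters. An antioxidant response core, TGACNNNGC, bound by NRF1 and NRF2, occurred in 6 (15.0%), against 16.8% and 12.4%. The CCAAT box occurred in 14 (35.0%), against 43.5% and 37.4%. The interferon response core, here a pair of GAAA stretches with 2 bases of any kind between them, occurred in 5 (12.5%), against 3.65% and 3.44%. Those 5 were Psmb3, Psmd4, Psmd9, Psme1 and Psmg4, none of them an immunoproteasome subunit.

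The 4 genes with an E-box were Psma4, Psmb10, Psmd9 and Psme3, and none of them passed with 4-OHT in TFEB cells. Their 60-base windows are shown because the E-box is the site of the factor under study, with the motif in capitals (5′ to 3′ on the strand of the gene), at chr9:54950692-54950751 (plus), chr8:105938476-105938535 (minus), chr5:123228112-123228171 (plus) and chr11:101316142-101316201 (plus).
Psma4: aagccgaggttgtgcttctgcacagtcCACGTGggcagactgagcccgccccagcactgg
Psmb10: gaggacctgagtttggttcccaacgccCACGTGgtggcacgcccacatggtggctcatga
Psmd9: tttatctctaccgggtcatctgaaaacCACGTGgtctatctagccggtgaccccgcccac
Psme3: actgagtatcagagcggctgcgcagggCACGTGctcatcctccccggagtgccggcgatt

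Of the members that passed, Psma2, Psma6, Psma7 and Psmb9 held the CCAAT box, Psme4 the antioxidant response core and Psme1 the interferon core. The windows of Psme4 and Psme1 are shown with the motif in capitals, read on the opposite strand in both, at chr11:30771742-30771801 and chr14:55578478-55578537, both on the plus strand.
Psme4: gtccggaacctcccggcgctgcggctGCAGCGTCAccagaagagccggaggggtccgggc
Psme1: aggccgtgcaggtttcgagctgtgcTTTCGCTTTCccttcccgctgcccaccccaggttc

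Other genes of the pathway were counted in 5 lists, to be read beside the 13.7% of all tested genes that rose, the 13.9% that fell and their median log2 change of 0.04. Of 15 tested genes for proteasome-associated proteins and assembly factors outside the Psm symbols, 4 rose and 1 fell with 4-OHT in TFEB cells, with a median log2 change of 0.07. Adrm1, which encodes the ubiquitin receptor of the 19S base, stood at 1034, 1075 and 1044 in TFEB cells given 4-OHT, 739, 619 and 731 in TFEB cells given vehicle, 706, 879 and 1042 in vector cells given 4-OHT and 852, 816 and 935 in vector cells given vehicle. The TFEB groups were far apart and vector cells lay between or beside them. It rose by 0.60 ± 0.13 (log2, SE, adjusted p = 0.00047). Fbxo7, which encodes a ubiquitin ligase adaptor that binds Psmf1, stood at 628, 580 and 527 in TFEB cells given 4-OHT and 339, 292 and 390 in TFEB cells given vehicle, with vector cells at 221 to 309. TFEB cells given 4-OHT were the highest group without overlap (log2 0.77 ± 0.18 SE, adjusted p = 0.00121).

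Ublcp1, a proteasome phosphatase, stood at 168, 154 and 194 in TFEB cells given 4-OHT and 73.7, 80.0 and 62.2 in TFEB cells given vehicle. The groups did not overlap, although vector 4-OHT library 1 at 158 reached them. It rose by 1.24 ± 0.36 (log2, adjusted p = 0.00778), a call lost without 3 libraries (0.0507). Its difference from vector cells did not pass (log2 1.22 ± 0.50 SE, adjusted p = 0.107). Zfand5, a proteasome-binding zinc finger protein named here because it completes the count, rose by 0.57 ± 0.10 (log2, adjusted p = 3.04e-05). AI314180, the mouse gene of the adaptor ECM29, stood at 6999, 6153 and 6363 in TFEB cells given 4-OHT and 8428, 9949 and 8817 in TFEB cells given vehicle, with vector cells at 7909 to 8420. TFEB cells given 4-OHT were the lowest group (log2 -0.48 ± 0.08 SE, adjusted p = 2.01e-05).

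Of 13 tested genes of the NRF1 and NRF2 axis, 2 rose and 2 fell, with a median log2 change of 0.00. Nfe2l1 itself did not pass (log2 0.07 ± 0.10 SE, adjusted p = 0.707). Nfe2l2, which encodes NRF2, stood at 2108, 2412 and 2260 in TFEB cells given 4-OHT, 1106, 967 and 1218 in TFEB cells given vehicle, 1388, 1464 and 1208 in vector cells given 4-OHT and 1219, 1252 and 1569 in vector cells given vehicle. All 3 TFEB 4-OHT libraries were above the other 9, and it rose 2.07-fold (log2 1.05 ± 0.11 SE, adjusted p = 6.39e-09). Vcp, the segregase p97, rose by 0.34 ± 0.09 (log2, adjusted p = 0.0024). The difference of Vcp from vector cells did not pass (log2 0.25 ± 0.12 SE, adjusted p = 0.195). Fbxw7, a ubiquitin ligase component that targets NRF1 and MYC, fell by 0.43 ± 0.09 on the log2 scale (adjusted p = 0.000511). Ddi2, the protease that cuts NRF1, fell by 0.34 ± 0.12 on the log2 scale (adjusted p = 0.04). Its difference from vector cells did not pass (log2 -0.15 ± 0.17 SE, adjusted p = 0.691). The Ddi2 call was lost under 11 of 21 alternatives, with adjusted p up to 0.128. Leaving out each of the 3 TFEB 4-OHT libraries (0.114, 0.0648, 0.0887) or each of the 3 TFEB vehicle libraries (0.0506, 0.0504, 0.128), or vector vehicle library 2 (0.0525), ended it.

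Among 10 tested shuttle factors and p97 cofactors, 2 rose and 2 fell (median 0.09). Nploc4, a p97 cofactor, rose by 0.51 ± 0.10 (log2, adjusted p = 0.000262), and the shuttle gene Ubqln1 by 0.29 ± 0.08 (adjusted p = 0.00693). In vector cells the log2 change of Nploc4 was 0.24 ± 0.10 (adjusted p = 0.721). Its difference between lines did not pass (log2 0.27 ± 0.14 SE, adjusted p = 0.252). Faf1, another p97 cofactor, fell by 0.65 ± 0.10 on the log2 scale (adjusted p = 5.73e-06), with 956, 998 and 1011 in TFEB cells given 4-OHT against 1631, 1600 and 1429 in TFEB cells given vehicle. The shuttle gene Rad23b fell by 0.32 ± 0.08 on the log2 scale (adjusted p = 0.00228). In the list of ubiquitin supply, the activating enzyme gene Uba1 rose by 0.27 ± 0.08 (log2, SE, adjusted p = 0.00842). The difference of Uba1 from vector cells did not pass (log2 0.14 ± 0.11 SE, adjusted p = 0.473). The fusion gene Rps27a fell by 0.23 ± 0.09 (log2, adjusted p = 0.0476), a call lost under 10 of 21 alternatives, with adjusted p up to 0.185 without 3 libraries. Leaving out each TFEB 4-OHT library (0.065, 0.114, 0.158), each TFEB vehicle library (0.084, 0.0536, 0.127) or vector vehicle library 1 (0.0523) ended it. The difference of Rps27a from vector cells did not pass (adjusted p = 0.773).

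Antigen processing is the process that immunoproteasomes serve. Of 24 tested genes of MHC class I peptide supply and its regulators, 10 rose and 5 fell, with a median log2 change of 0.26. B2m, the light chain of MHC class I, stood at 50240, 52543 and 51172 in TFEB cells given 4-OHT, 28026, 33542 and 30828 in TFEB cells given vehicle, 34914, 31282 and 29406 in vector cells given 4-OHT and 28888, 29709 and 32195 in vector cells given vehicle. TFEB cells given 4-OHT stood far above the other 9 libraries, and it rose 1.67-fold (log2 0.74 ± 0.09 SE, adjusted p = 1.59e-07). Pdia3, a chaperone of the peptide-loading complex, rose by 0.77 ± 0.09 (log2, adjusted p = 7.78e-08), and the heavy chain gene H2-D1 by 0.71 ± 0.15 (adjusted p = 0.000462), with 2303, 2070 and 2534 in TFEB cells given 4-OHT against 1257, 2041 and 1078 in TFEB cells given vehicle. H2-D1 belongs to a family of near-identical genes, so its reads may be shared with them.

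The genes of this list with the largest falls past the threshold were Irf8, Ifngr2 and Lap3. Irf8, an interferon regulatory factor of B and myeloid cells, stood at 694, 887 and 992 in TFEB cells given 4-OHT and 1394, 1213 and 1373 in TFEB cells given vehicle without overlap (log2 -0.64 ± 0.12 SE, adjusted p = 0.000105). Ifngr2, a chain of the interferon-gamma receptor, fell by 0.62 ± 0.13 on the log2 scale (adjusted p = 0.000353). In vector cells the log2 change of Ifngr2 was -0.23 ± 0.13 (adjusted p = 0.83). Its difference between lines did not pass (log2 -0.39 ± 0.18 SE, adjusted p = 0.169). Lap3, a cytosolic aminopeptidase, fell by 0.40 ± 0.11 on the log2 scale (adjusted p = 0.00716), lost without TFEB 4-OHT library 2 (0.0751). The difference of Lap3 from vector cells did not pass (adjusted p = 0.0745). Psmb8 and Psmb9 thus fell while B2m, H2-D1 and Pdia3 rose in the same libraries. Related genes did not all split this way: Psme1 rose (log2 0.32), and Psmb10 (0.27) and Tap1 (-0.22) did not pass. Tap1 is named for its overlap with Psmb9 and does not stand for this list, in which 10 genes rose and 5 fell. The difference from vector cells passed in limma for B2m, H2-D1 and Pdia3, but not for Psmb8 (adjusted p = 0.215) or Psmb9 (0.696).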

How the data were processed

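Per the labels' protocols, total RNA of the cultured lymphoma cells went into libraries made by a NuGEN Ovation kit for mouse. The deposited values are a signal for each gene in each library, namely reads that the authors divided by a size factor of the library. Build mm10 and the tools DESeq2 1.6.3, HTSeq 0.6.1 and STAR 2.5.3 are named, per the submitters' processing notes. Their roles, the annotation and the strand setting were not given in the sources used here. In every library 100% of values above 0 were whole multiples (tolerance 0.001) of the value of 1 read, so whole reads were recovered, 11849029 to 22109283 per library. Floors of 3 reads cover counting error only, as no molecular identifiers are named.

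The 13111 genes that reached 10 in 3 or more libraries were taken to log2 after adding 1, and every fold change is a difference of log2(value + 1). limma 3.58.1 (R 4.3.3) with a variance trend used all 12 libraries and a mean for each group, which leaves 8 residual degrees of freedom. P-values were adjusted over all tested genes (Benjamini-Hochberg, threshold 0.05). The 5 comparisons share libraries, so no overlaps between their genes are given. Alternatives were edgeR 4.0.16 and DESeq2 1.42.0 on recovered reads, upper-quartile scaling, pseudocount 10, minimum 50, no filter, a replicate block, only the groups compared, each library left out, and leaving out together the library with the most detected genes in each of 3 groups. The code was checked on simulated counts with the same relative scatter set for every gene. That setting is simpler than these libraries and says nothing of their own scatter.

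Members and lists were chosen with earlier results of these data known. Values of each TFEB library are given for the catalytic beta subunits, the alternative caps and Psmf1. The same holds for members past the threshold with 4-OHT in TFEB cells or in the difference between lines. Vector libraries are left out for Psmb5, Psmb6 and Psmf1 and given as ranges for Psma2. Psmg4, past 1.5-fold between lines, is given in 4-OHT only. In each list of other pathway genes, up to 3 per direction with the largest change past the threshold and a mean of at least 100 were named. A result that this rule names is not reported here. Gene positions and exon lengths are from GENCODE on GRCm38, the same assembly as mm10.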

Additional observations from a re-analysis of the deposited data

Results flagged for a closer look

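The change with 4-OHT differed between TFEB and vector cells for 16 of the proteasome and pathway genes named in the report by limma's interaction term (adjusted p at most 0.05), and each value below is the log2 change in TFEB cells minus that in vector cells. Among proteasome subunits the difference was 0.53 for Psmd8 (adjusted p = 0.000549), 0.57 for Psmd6 (0.0328) and 0.34 for Psma6 (0.0419), and of these calls that of Psmd8 held under all 20 alternatives. The libraries that end the other 2 are named with their values in the report.

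Among associated factors the difference was 0.92 for Fbxo7 (adjusted p = 0.00968), 0.60 for Adrm1 (0.0192), 0.54 for Zfand5 (0.00525) and -0.49 for AI314180 (0.00198). The call of Zfand5 held under all 20 alternatives. Fbxo7 lost the call without 3 libraries (0.0853). Adrm1 lost it without TFEB vehicle library 2 (0.0525), vector 4-OHT library 1 (0.0896) or vector vehicle library 3 (0.0597), and without 3 libraries (0.0862).

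On the NRF2 axis it was 1.03 for Nfe2l2 (adjusted p = 9.55e-06) and -0.54 for Fbxw7 (0.00327). Among shuttle factors and p97 cofactors it was 0.37 for Ubqln1 (0.0245), -0.67 for Faf1 (0.000805) and -0.33 for Rad23b (0.0411). Ubqln1 lost its call with edgeR (0.0599), with no filter on low values (0.052), with upper-quartile scaling (0.0548), without TFEB 4-OHT library 2 (0.0524) or 3 (0.0574), TFEB vehicle library 3 (0.0643), vector 4-OHT library 3 (0.0512) or vector vehicle library 3 (0.0734) and without 3 libraries (0.0505). Rad23b lost it with edgeR (0.131), with no filter (0.0914), without each TFEB 4-OHT library (0.074, 0.0848, 0.0832), without TFEB vehicle library 2 (0.0984) or 3 (0.0762), without each vector 4-OHT library (0.0702, 0.0651, 0.0561) and without vector vehicle library 1 (0.0926) or 2 (0.0887).

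In antigen processing it was 0.67 for B2m (adjusted p = 0.000352), 0.94 for H2-D1 (0.00184), 0.49 for Pdia3 (0.0085) and -0.60 for Irf8 (0.0133). Without 3 libraries the calls of H2-D1 (0.067), Pdia3 (0.135) and Irf8 (0.109) were lost. H2-D1 also lost it with DESeq2 (0.0528), and Irf8 with edgeR (0.0609) and without TFEB 4-OHT library 1 (0.0687).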

How the results depend on the processing

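No member passed with 4-OHT in vector cells under any of 21 alternatives. Of the 47 genes, 6 rose with 4-OHT in TFEB cells (2, Psmd8 and Psmd6, without 3 libraries, and 4 to 6 with 1 library left out) and 5 fell (3 with edgeR, 3 with no filter, and 3 to 5 with 1 library left out). The difference between lines passed for 3 higher members (1 with edgeR, 1 with upper-quartile scaling, 1 without 3 libraries, and 1 to 3 with 1 library left out) and 0 lower (2 with DESeq2, 2 with a minimum of 50, 2 with upper-quartile scaling, and 0 to 2 with 1 library left out). Between lines in vehicle, 0 were lower (2 with DESeq2, 0 to 1 with 1 library left out). In 4-OHT, 2 were higher (1 without 3 libraries, 1 to 3 with 1 library left out) and 4 lower (7 with DESeq2, 8 with upper-quartile scaling, 2 to 5 with 1 library left out). Of the other pathway genes, 11 of those tested fell in TFEB cells (7 to 11 with 1 library left out, the lowest without TFEB 4-OHT library 2). Signs turned for 2 values that never passed: with 1 library left out, the log2 change of Psmb5 in TFEB cells ran from -0.29 to 0.0058, the highest without TFEB 4-OHT library 2, and that of Psmb6 from -0.039 to 0.16, the lowest without TFEB vehicle library 2. The cause of these changes was not tested beyond the fewer libraries in such fits. Whether replicate numbers pair the libraries was not settled. Deviations of same-numbered libraries from their group means correlated from -0.54 to 0.67 (median -0.05). Those of differently numbered libraries correlated from -0.60 to 0.52 (median 0.05). With 3 libraries in each group such correlations cannot decide it. With the replicate block 6 members rose and 5 fell in TFEB cells. At 11849029 to 22109283 reads per library, depth limits what can be said of Psma8 and Psmb11. Libraries of a group differed by 7.88 to 25.4 times counting error (chi-square per degree of freedom).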
